A study of Mus musculus with 8 samples.

Results

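The accessible regions described here are those found open in all 3 peak lists of a mouse ATAC-seq study, that is, in cells at day 7 (D7) with induced GLI1, in D7 control cells and in day 5 (D5) control cells. ATAC-seq uses the Tn5 transposase, which inserts sequencing adapters where DNA is not covered by nucleosomes. Overlapping peaks of each list were merged into regions on chromosomes 1 to 19, and the members were selected on presence alone: a region of the D7 GLI1 list that overlapped, by at least 1 base, a region of the D7 control list and a region of the D5 list. There were 15809 such regions among 42192 of the D7 GLI1 list, which is 37.5% (95% Wilson interval 37.0 to 37.9%). Of the rest, 9850 were shared with the D7 control list only, 2203 with the D5 list only, and 14330 with neither.

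All groups were cardiac progenitors differentiated in culture from mouse embryonic stem cells (line GLI1-FTA, strain A2Lox.cre). The D7 GLI1 group had 3 libraries from cells given doxycycline at 500 ng/ml for 48 hours, starting at D5, to overexpress GLI1, the transcriptional activator of Hedgehog signalling. The D7 control group had 3 libraries and the D5 control group 2, with no doxycycline. The labels name 1 line and give no second clone, and the promoter of the transgene is not given in the sources used here. Each group has 1 pooled list, so no replicate spread exists, no p-value is given, and all intervals cover counting error only. That the D7 control list belongs to D7 was inferred from its name, the counterpart of the doxycycline list's.

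DNA that is open in many cell states is known mainly from promoters. Most promoters of genes used by every cell lie in CpG islands, stretches rich in the dinucleotide CG that are usually free of DNA methylation and bound by general factors such as SP1, NRF1, NFY and ETS proteins. Enhancers, which lie further from genes, are more often open in 1 lineage or stage. Insulators bound by CTCF and the short genes read by RNA polymerase III are further classes of DNA that many cell types keep open.

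The promoters that show the range of these regions are printed first. Each line gives the 160 bases before a RefSeq start (build GRCm38.p6, read 5′ to 3′ on the gene's strand), with matches to 12 short motifs in capitals. Casp8ap2, Npc2 and Pip4p1 are among the 8 regions with the highest ranks in all lists. Ptch1 and Hhip are Hedgehog genes, Isl1 and Mef2c are factors of heart progenitors, and Mef2c is shown as the printed promoter with the lowest GC content.
Casp8ap2 promoter, chr4:32615310-32615469, plus strand: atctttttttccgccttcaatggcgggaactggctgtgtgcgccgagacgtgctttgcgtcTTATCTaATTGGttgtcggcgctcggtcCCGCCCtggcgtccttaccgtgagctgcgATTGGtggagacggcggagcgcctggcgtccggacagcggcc
Npc2 promoter, chr12:84773113-84773272, minus strand: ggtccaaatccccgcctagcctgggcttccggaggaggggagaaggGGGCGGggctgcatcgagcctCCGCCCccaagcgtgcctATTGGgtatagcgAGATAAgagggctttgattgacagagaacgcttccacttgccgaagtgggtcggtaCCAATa
Pip4p1 promoter, chr14:50930850-50931009, minus strand: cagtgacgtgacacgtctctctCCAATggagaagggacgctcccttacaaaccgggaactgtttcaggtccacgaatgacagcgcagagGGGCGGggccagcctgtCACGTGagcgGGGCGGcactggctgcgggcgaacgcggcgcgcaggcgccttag
Ptch1 promoter, chr13:63565736-63565895, minus strand: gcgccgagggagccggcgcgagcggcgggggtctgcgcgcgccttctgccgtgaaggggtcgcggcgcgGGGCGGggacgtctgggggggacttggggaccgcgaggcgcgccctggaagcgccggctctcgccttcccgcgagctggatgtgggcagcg
Hhip promoter, chr8:80058009-80058168, minus strand: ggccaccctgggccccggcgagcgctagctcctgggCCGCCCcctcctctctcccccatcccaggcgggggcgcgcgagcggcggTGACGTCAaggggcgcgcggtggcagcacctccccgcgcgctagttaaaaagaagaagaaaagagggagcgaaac
Isl1 promoter, chr13:116309689-116309848, minus strand: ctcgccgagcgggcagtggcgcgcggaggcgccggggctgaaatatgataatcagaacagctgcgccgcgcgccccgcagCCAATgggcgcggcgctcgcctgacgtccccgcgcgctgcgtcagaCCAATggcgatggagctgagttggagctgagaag
Mef2c promoter, chr13:83523496-83523655, plus strand: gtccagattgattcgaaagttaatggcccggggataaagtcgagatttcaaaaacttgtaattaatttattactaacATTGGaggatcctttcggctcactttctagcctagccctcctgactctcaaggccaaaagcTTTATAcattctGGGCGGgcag
The printed bases of all 7 lay inside the D7 GLI1 region of a member. Whether D7 control and D5 regions cover the same bases was not examined. Those of Ptch1 held 27 CG dinucleotides and were 79.4% G or C, against 5 CG dinucleotides and 43.1% for Mef2c. The capitals in Casp8ap2 mark CCAAT boxes, a GC box and a GATA motif, those in Pip4p1 a CCAAT box, GC boxes and an E-box, those in Hhip a GC box and a CRE, and those in Mef2c a CCAAT box, a GC box and a TATA box. A match is a run of letters and was not tested as a binding site. The D7 GLI1 summit of the Mef2c region lay 1174 bp downstream of the printed start, and that of the Ptch1 region 498 bp upstream.

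Regions open in all 3 lists were the strong ones. Fold is the authors' enrichment of a peak over the background, and a region takes the fold of its highest peak. The median fold of the members was 19.7 in the D7 GLI1 list (interquartile range 8.78 to 36.5), 17.6 in the D7 control list (7.92 to 33.3) and 8.30 at D5 (5.90 to 10.9). Regions shared by the D7 lists only had a median fold of 4.91 with GLI1 and 6.30 in the D7 control list. D5 folds are on another scale: the D5 list holds 10244 distinct folds among 46805 peaks, against 570 among 63904 in the D7 GLI1 list and 530 among 58220 in the D7 control list, so ratios of fold were taken between the D7 lists alone. Within each list, the median member outranked 80.3% of regions with GLI1, 77.1% in the D7 control list and 74.4% at D5. Since the members were selected on being called in each list, their strength is a description of that choice.

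The share of D7 GLI1 regions that were open in all lists climbed with fold in every bin. It was 3.71% of 3854 regions below 3-fold, 61.5% of 3261 regions between 10- and 15-fold and 90.4% of 2793 regions between 20- and 30-fold. Of 266 regions at 80-fold or more, 266 were members. The cut at the other end was soft: 82 members overlapped another list by under 50 bases, and 56 regions of 2 lists lay under 50 bases from the missing one. The shortest overlaps were of 2 bases within Unc79, and of 3 bases at Ccdc3 and Pcdh7. The nearest non-members, in Flt4, Lhpp and Adam18, missed a D5 region by 2 bases.

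**Figure D1:**
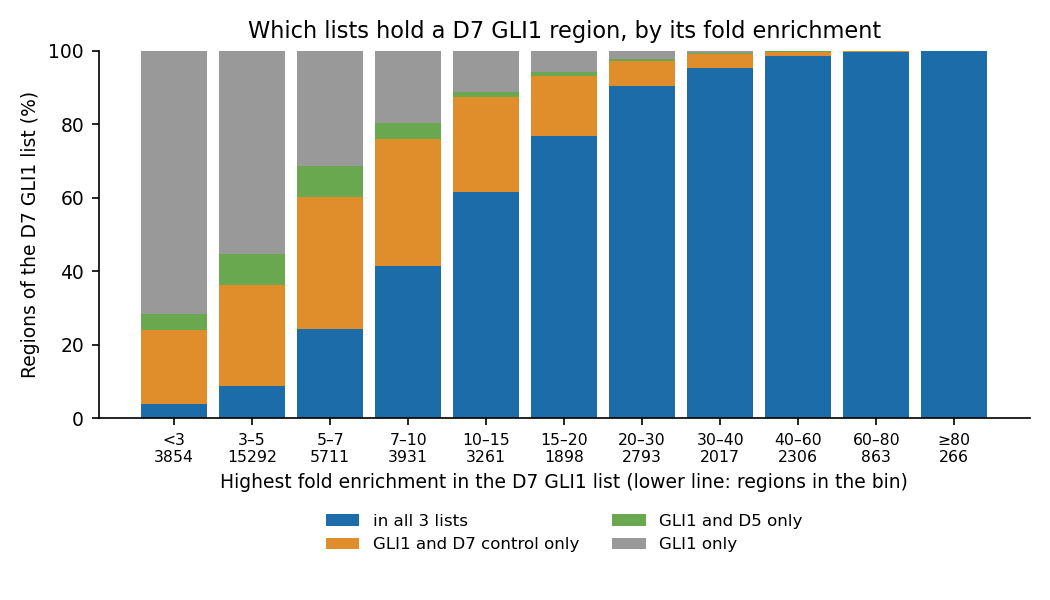
Stacked bars give, for each bin of fold enrichment in the D7 GLI1 list (x axis, with the number of regions in the bin under it), the percent of regions (y axis) in each overlap class. The share in all 3 lists is 3.71% in the lowest bin and 100% of 266 regions in the highest.

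The members were broad and their summits coincided. Their median width in the D7 GLI1 list was 1071 bp, against 388 bp for regions shared by the D7 lists only, and 59.5% of members held several summits, against 22.9%. The median member was covered over 92.3% of its bases by D7 control regions and over 48.8% by D5 regions, which were narrower in general (median 238 bp over all D5 regions). The summit of the highest D7 GLI1 peak lay inside regions of both other lists in 91.5% of members. It lay within 100 bp of the D7 control summit in 85.6% of members (median distance 23 bp), against 68.6% (49 bp) of regions shared by the D7 lists only. At D5 it lay within 100 bp in 78.6% of members (37 bp), close to the 76.8% of regions shared with D5 only, where the Wilson intervals overlap. Position was not used by the rule beyond 1 base of overlap, so the summits did not have to coincide to this degree. A wider region meets the overlap rule more easily, so the width of the members is in part a description of that choice. Members and regions shared by the D7 lists only also differ in strength, with median folds of 19.7 and 4.91 with GLI1. Widths and summit distances were not compared at equal fold.

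The widest members were of 6540 bp over Midn, 5955 bp near Marcks, 5872 bp over Brd2 and 5737 bp over Bbc3. Brd2, which encodes a BET protein that binds acetylated histones, had a fold of 69.2 with GLI1 and 70.2 in the D7 control list, and its D5 fold of 4.83 ranked at 30.2% of the D5 list. Marcks, a substrate of protein kinase C that binds actin and membranes, had folds of 62.5 with GLI1, 46.8 in the D7 control list and 8.46 at D5. The 8 members with the highest rank in their weakest list were narrower, from 1150 to 1983 bp.

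Of those 8 regions, 7 lay at gene starts. The region at Casp8ap2, whose protein takes part in histone mRNA processing, spans chr4:32614948-32616097 (mm10) and had folds of 81.3 with GLI1, 80.6 in the D7 control list and 15.8 at D5. At Daam1, a formin of the planar cell polarity pathway, the folds were 97.4 with GLI1, 98.5 in the D7 control list and 15.5 at D5. Npc2, a lysosomal cholesterol carrier, had 92.9 with GLI1, 70.0 in the D7 control list and 16.1 at D5. The regions at Chd6 (a chromatin remodeller), Get1 (a receptor that inserts proteins into the endoplasmic reticulum), Pip4p1 (a lipid phosphatase) and Stt3a (the catalytic subunit of an oligosaccharyltransferase) had folds from 75.5 to 89.3 with GLI1. The summits of these 7 lay within 224 bp of a gene end. The exception was a region inside Stard13, with its summit 59443 bp from the nearest end of a protein-coding gene. Its folds were 107 with GLI1, 89.3 in the D7 control list and 15.3 at D5.

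Gene starts accounted for most of the members. The summit lay within 1 kb of an end of a protein-coding gene in 61.5% of members (60.8 to 62.3%), against 14.8% of regions shared by the D7 lists only, 12.9% of regions shared with D5 only and 8.82% of regions found with GLI1 only. A further 22.6% of members lay inside a gene and 15.9% outside genes. Only 2.97% lay over 100 kb from any gene, against 9.73% of regions shared by the D7 lists only. The contrast held at equal strength: among D7 GLI1 regions between 10- and 15-fold, 58.3% of members were near a gene end, against 14.1% of regions shared by the D7 lists only. Read the other way, 90.1% of the 1299 regions near a gene end in that bin were members, against 42.7% of the 1962 away from one.

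These gene ends were starts. The gene annotation used here gives both ends of a gene without strand, and strand is known for the genes of the RefSeq promoter table. Among 8815 genes with 1 start in that table and a length of at least 5 kb, 5552 (63.0%) had a member within 1 kb of the start and 155 (1.76%) had one at the far end. Around 8724 members with a table start within 1 kb, the summit lay at a median of 29 bp upstream (−29; interquartile range −80 to 19 bp) and within 100 bp in 68.7%. For the 1096 regions shared by the D7 lists only the median was 3 bp and 29.2% lay within 100 bp, and for the 220 shared with D5 only it was 16 bp and 43.6%. Starts on both strands were shared by 747 of the 8724 members (8.56%), and these divergent promoters had a median fold of 40.5 with GLI1, 37.1 in the D7 control list and 10.8 at D5, against 26.3, 23.6 and 9.37 in the same order for members with 1 gene.

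**Figure D2:**
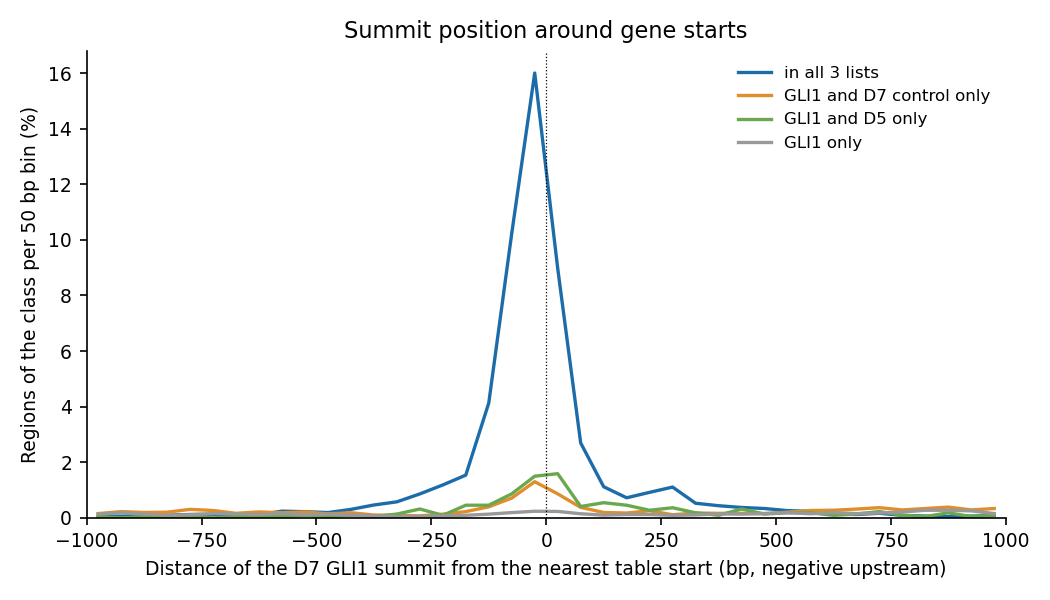
Lines give the percent of each class of D7 GLI1 regions (y axis, in bins of 50 bp) by the distance of the summit from the nearest start in the promoter table (x axis, bp). The regions open in all 3 lists peak just upstream of the start, with a median of −29 bp. Regions shared by the D7 lists only and with D5 only also peak at the start, at a far smaller share of the class. Regions found with GLI1 only are highest from 800 to 900 bp downstream, at 0.272% per bin, against 0.237% in the bin just upstream of the start.

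CpG content set apart the promoters with a member. A promoter window of 300 bases (250 before the start and 50 after it) was called CpG-rich at a GC content of at least 50% and an observed over expected CpG ratio of at least 0.6. Of the 11118 windows with a member at the start 75.4% were CpG-rich, against 34.2% of 2020 windows with another region of any list and 3.74% of 6946 windows with no region. Conversely, 89.8% of CpG-rich windows had a member, against 25.4% of the others. Over 10 equal bins of all 20084 windows ordered by CpG ratio, the share with a member was 2.89% in the lowest bin and 94.3% in the highest. Median GC content was 62.7% in windows with a member, 56.3% with another region and 47.0% with none.

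Motifs of general promoter factors were more frequent in windows with a member. Each motif was searched on both strands of the 300-base windows; no motif's letters lie inside another's, and 3 of the 12 are palindromes. The GC box GGGCGG, bound by SP1-type zinc finger proteins, was in 69.5% of windows with a member, against 11.4% of windows with none and 47.0% of all windows. Within CpG-rich windows alone the shares were 77.4% with a member and 71.4% without one. The ETS motif CCGGAAGT was in 8.39% of windows with a member and 0.763% of windows with none (5.28% of all), and within CpG-rich windows in 9.49% with a member and 6.21% without one. The NRF1 motif CGCATGCG, bound by a factor of genes for mitochondria and growth, was in 4.19% of windows with a member, 0.374% with none and 2.54% of all; within CpG-rich windows it was in 5.02% with a member and 2.63% without one. The YY1 motif AAGATGGC (4.47% with a member, 1.25% with none, 3.06% of all), the CRE TGACGTCA (3.47%, 0.662%, and 462 of all 20084 windows) and the E-box CACGTG (10.4%, 4.16%, 7.89%) had the same order. The E-box order turned round within CpG-rich windows, at 11.4% with a member and 13.6% without one, with overlapping intervals. ZNF143's ACTACAATT was rare, in 0.801% of windows with a member, 0.173% with none and 0.533% of all. Within CpG-rich windows the shares with and without a member were 5.06% and 2.53% for YY1. They were 3.90% and 2.63% for the CRE and 0.632% and 0.421% for ZNF143, both with overlapping intervals. In the other windows they were 2.67% and 1.16% for YY1, 2.16% and 0.636% for the CRE, and 1.32% and 0.175% for ZNF143.

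Over all windows, other motifs were as frequent or less frequent in those with a member. The CCAAT box was in 38.1% of windows with a member, 39.2% with none and 38.1% of all. Within the CpG split it was more frequent with a member. CpG-rich windows held it in 36.8% with a member and 29.3% without one, and the other windows in 42.1% and 39.2%. The TATA box TATAAA was in 5.60% of windows with a member, 24.6% with none and 12.7% of all, and within windows that were not CpG-rich it was in 9.40% with a member and 23.3% without one. GATA's AGATAA was in 4.99% of windows with a member and 16.9% with none (9.57% of all), and TEAD's GGAATG in 11.2% with a member and 16.7% with none (13.4% of all). Within CpG-rich windows the TEAD shares were 9.74% with a member and 9.58% without one, with overlapping intervals. The GATA shares there were 3.34% and 4.84%, also with overlapping intervals, and in the other windows 10.1% and 16.5%. The GLI motif GACCACCCA was in 20 of the 11118 windows with a member (0.180%), 0.202% with none and 0.174% of all, with overlapping intervals. AT-rich motifs are less likely in GC-rich sequence, and the part of base composition in these shares was not tested beyond the CpG split.

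**Figure D3:**
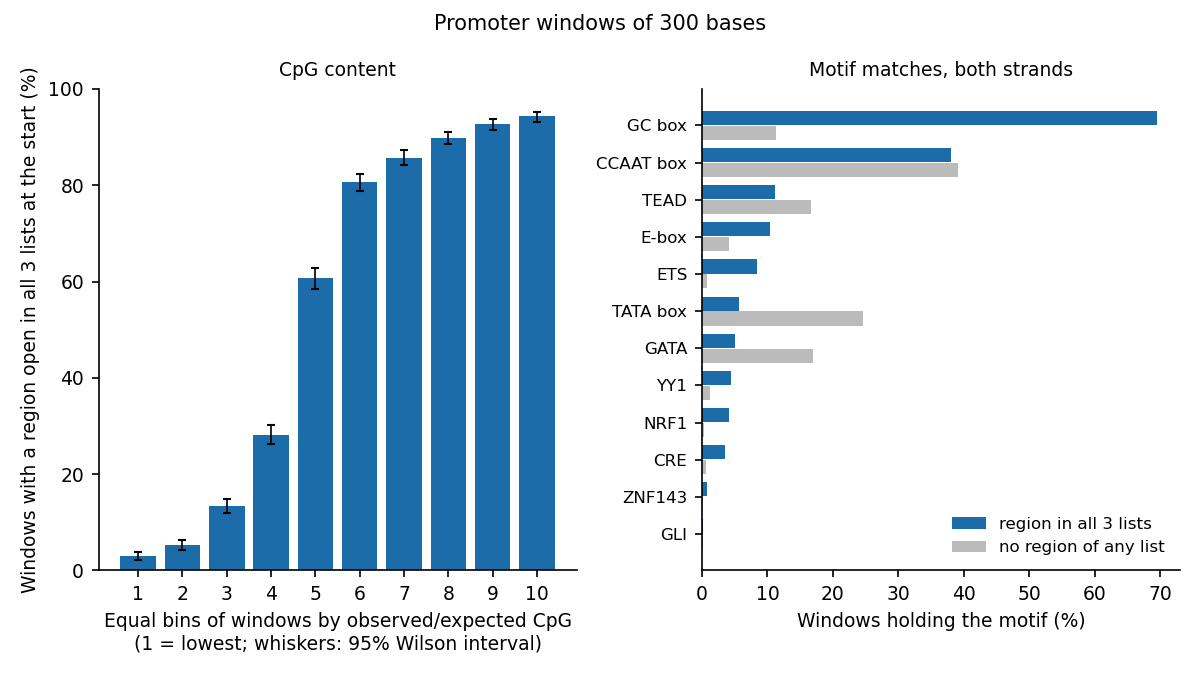
Left: percent of promoter windows with a region open in all 3 lists at the start (y axis), in 10 equal bins of CpG ratio (x axis), from 2.89% to 94.3%. Right: percent of windows that hold each of the 12 motifs (x axis), with a region in all 3 lists (blue) or with no region at the start (grey); the GC box is at 69.5% and 11.4%, the TATA box at 5.60% and 24.6%.

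Genes that every dividing cell needs often carried such a region. A member lay within 1 kb of either end of 11346 of 20661 protein-coding genes, a background of 54.9%. The distance is to the D7 GLI1 region, and the D7 control or D5 region that it overlaps can lie further off. The shares of 20 gene lists ran from 35 of 36 to 2 of 20. RNA polymerase II and splicing genes had a member in 35 of 36, replication and cell cycle genes in 32 of 34, respiratory chain genes in 34 of 37, housekeeping genes in 16 of 18, proteasome genes in 26 of 31 and chromatin remodeller and cohesin genes in 25 of 31. Gins2, a subunit of the replicative helicase complex, had folds of 79.3 with GLI1, 78.1 in the D7 control list and 14.9 at D5. Polr2i, an RNA polymerase II subunit, had 63.7 with GLI1, 55.4 in the D7 control list and 14.5 at D5, in a region whose summit was nearest to the start of its neighbour Tbcb. Pcna, the replication clamp, had 55.6 with GLI1, 56.0 in the D7 control list and 12.9 at D5, nearest to Cds2. Ndufs8 and Ndufv2 of respiratory complex I had D7 GLI1 folds of 57.7 and 47.7, and Psmd8 of the proteasome 64.1. Orc1, Rfc1, Arid1a, Dnmt1, Dnmt3a and Stag1 had no member at their outermost ends but had one at a start of the promoter table. Counting those starts too, the replication list came to 34 of 34 and the chromatin list to 29 of 31. The background of all genes rose as well, to 58.4%, so the outermost ends understate the shares.

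Lists of genes used in other tissues had few members. The lymphocyte and myeloid list had a member in 2 of 20 genes, the hepatocyte list in 2 of 19 and the epidermal list in 2 of 16. Those near Cd68 and Cd4, markers of macrophages and T cells, had their summits nearest to other genes, Mpdu1 and Gpr162. The hepatocyte genes were Apob and Apoa1, with D7 GLI1 folds of 5.09 and 7.55, and the epidermal ones Lor and Krt10, with 20.5 and 11.6. The adult neuronal list had a member in 13 of 22 genes, near the background, led by the synaptic genes Dlg2, Syt1 and Gria2. In these bulk lists, an open region in few of the cells and a weakly open one in all of them cannot be told apart.

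**Figure D4:**
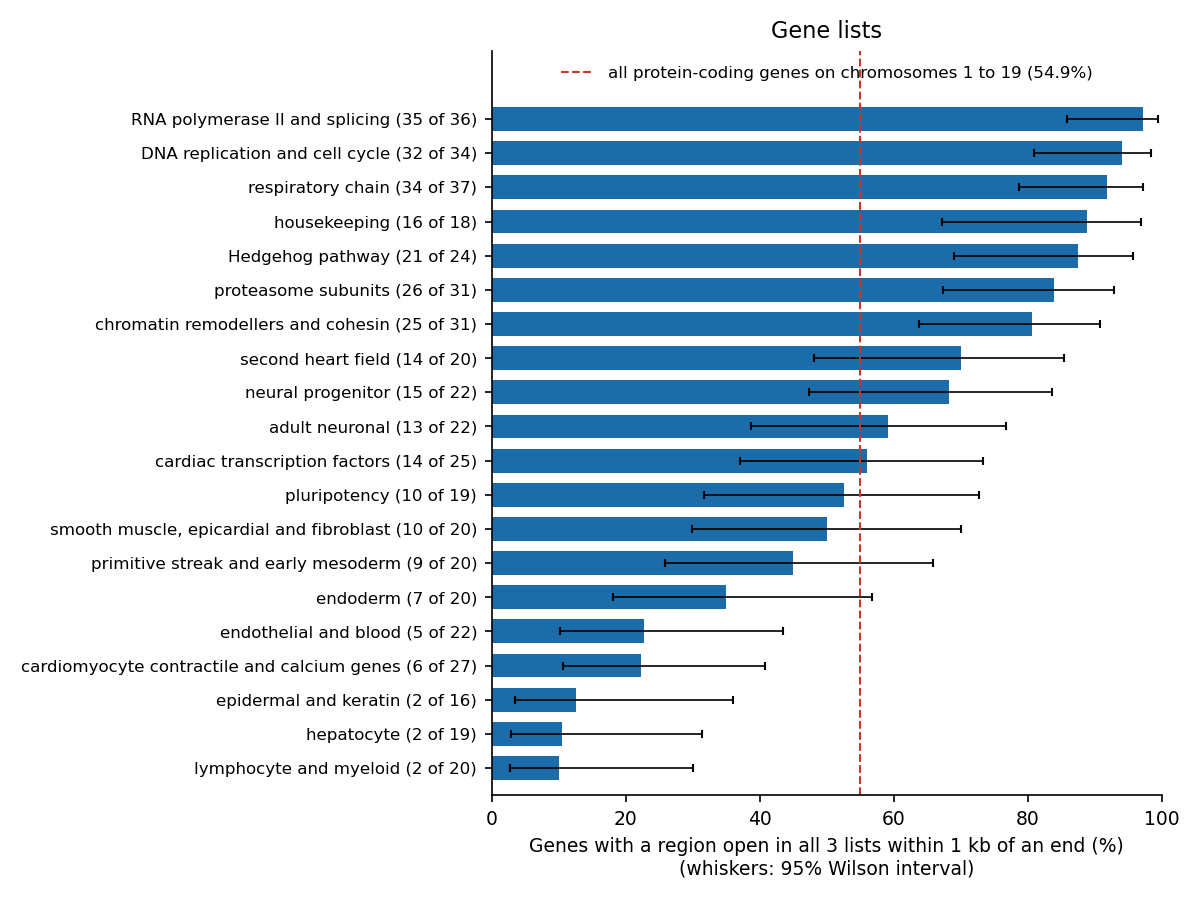
Bars give the percent of each gene list (y axis, with counts) that has a region open in all 3 lists within 1 kb of a gene end (x axis), with 95% Wilson intervals as whiskers; the dashed line is the 54.9% of all protein-coding genes. RNA polymerase II and splicing genes are at 35 of 36 and lymphocyte and myeloid genes at 2 of 20.

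Cardiac transcription factors had a member in 14 of 25 genes (56.0%; Wilson interval 37.1 to 73.3%) and second heart field genes in 14 of 20 (48.1 to 85.5%), and both intervals hold the 54.9% of all genes. Genes of contraction and calcium handling had one in 6 of 27 (10.6 to 40.8%), below that share. With table starts the counts were 17 of 25, 15 of 20 and 8 of 27, where all genes gave 58.4%. Isl1, a LIM-homeodomain factor of second heart field progenitors, had folds of 40.4 with GLI1, 28.1 in the D7 control list and 9.27 at D5. The Notch targets Hey1 and Hey2 had 49.7 and 46.7 with GLI1, 41.9 and 50.8 in the D7 control list, and 10.3 and 9.52 at D5. Myocd, a coactivator of cardiac and smooth muscle genes, had 27.4 with GLI1, 10.4 in the D7 control list and 14.0 at D5. Nkx2-5 and Hand2 had a region at an end in at least 1 list but no member there, and Gata4 and Tbx5 had no region at their outermost ends. Nkx2-5 and Hand2 had no member at a table start either, and table starts of Gata4 and Tbx5 were not analysed here. Gata4 was the nearest gene of 2 members away from its ends. Of the labelled cell type's 6 markers, Isl1 had a member at an end, and Mef2c at a table start (folds of 21.9 with GLI1, 16.0 in the D7 control list and 5.47 at D5). The D7 GLI1 summit of that Mef2c region lay 1174 bp downstream of the start. Among contraction genes, Atp2a2, the calcium pump of the sarcoplasmic reticulum, had 61.3 with GLI1, 56.2 in the D7 control list and 11.8 at D5, and Actn2, Tpm1, Ryr2, Actc1 and Tnnc1 had from 5.44 to 28.8 with GLI1, the last in a region nearest to Nisch.

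Most lists of earlier and other fates lay near the background of 54.9%. Pluripotency genes had a member in 10 of 19 (31.7 to 72.7%), among them Klf2, Klf4, Klf5, Sall4, Lin28a and Sox2, while Pou5f1 and Nanog had no region at their ends in any list. Sox2, which is also a neural progenitor factor, had folds of 16.9 with GLI1, 25.7 in the D7 control list and 7.77 at D5. Lin28a and Lin28b, the RNA-binding proteins that block let-7 maturation, had 36.3 and 19.1 with GLI1, 43.0 and 15.3 in the D7 control list, and 8.49 and 7.02 at D5. The neural progenitor list had a member in 15 of 22 genes, primitive streak and early mesoderm in 9 of 20, smooth muscle, epicardial and fibroblast in 10 of 20, and endoderm in 7 of 20, all with intervals that hold the background. The endothelial and blood list, with 5 of 22 (10.1 to 43.4%; Kdr, Flt4, Erg, Sox7 and Flt1), lay below it. Table starts added Egfl7, Gata2 and Runx1, for 8 of 22, where all genes gave 58.4%. Cdh5, Tek and Pecam1 of endothelium, and Alb, Ttr and Ptprc of liver and blood, had no member there. Of the early mesoderm markers, Eomes had a member, with folds of 6.32 with GLI1, 7.02 in the D7 control list and 5.52 at D5. T, Mesp1 and Mixl1 had other regions only.

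Hedgehog genes had a member in 21 of 24 (Wilson interval 69.0 to 95.7%), against 54.9% of all genes. With table starts the count was 22 of 24, against 58.4% of all genes. The receptor chain was covered at genes that include Smo, Gas1, Boc, Cdon and Hhip, the transduction step at Sufu, Kif7, Spop, Prkaca and Gsk3b, and the factors at Gli1, Gli2 and Gli3; of the ligand genes Shh and Ihh had no member, and that at Dhh was nearest to Rhebl1. Gsk3b had the highest D7 folds of the list, 99.0 with GLI1, 113 in the D7 control list and 9.11 at D5. Prkaca ranked highest in its weakest list, at folds of 81.3 with GLI1, 76.5 in the D7 control list and 14.2 at D5. Ptch1, the receptor and a target of the pathway, had no member at its outermost ends, but its table start lay in a member of 5078 bp with folds of 49.7 with GLI1, 36.4 in the D7 control list and 4.44 at D5. At Gli1 the member, of 4134 bp, had folds of 31.9 with GLI1, 13.3 in the D7 control list and 6.95 at D5. Within 1 kb of the ends of Gli1 the D7 control fold was 11.2, and no D5 region lay there. Reads from the induced copy and from the gene itself cannot be told apart. At Gas1, a Hedgehog co-receptor, the order was the opposite, with 34.4 with GLI1, 70.0 in the D7 control list and 6.87 at D5.

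The D7 folds of the members were close to each other. The median log2 ratio of fold, GLI1 over control, was 0.14 (interquartile range −0.09 to 0.38), and 81.7% of members differed by less than 1.5-fold, against 50.9% of regions shared by the D7 lists only. At least 2-fold higher with GLI1 were 482 members (3.05%), where all 25659 regions shared by the D7 lists gave 3.96%. At least 2-fold lower were 399 members (2.52%), where all shared regions gave 10.7%. With D7 control regions as the anchor, 594 of 15853 members were higher and 350 lower. All shared regions then gave 8.29% higher and 6.96% lower, so the direction of that background depends on the anchor. Among regions shared by the D7 lists and absent at D5 the shares were 5.42% higher and 23.9% lower. Those regions were weaker than the members, with a median fold of 4.91 with GLI1 against 19.7. The ratios of members and other regions were not compared at equal fold. Spearman's rank correlation over the 15809 members was 0.94 between the D7 lists, 0.65 between D7 GLI1 and D5 and 0.62 between D7 control and D5; the points share library pools and region width, and no test was made.

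**Figure D5:**
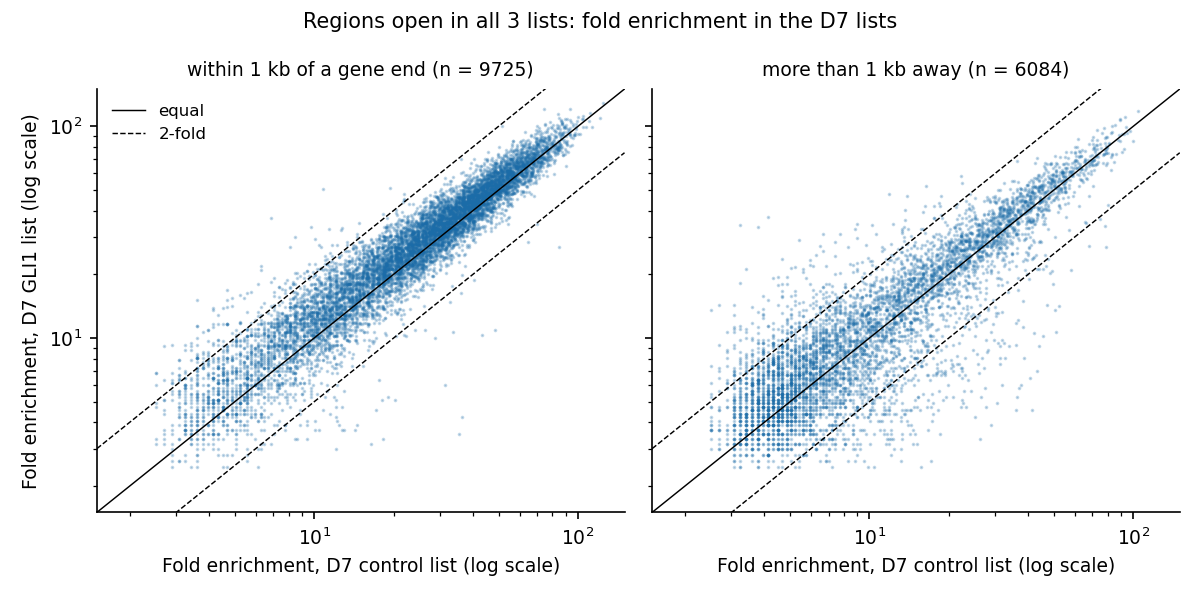
Each point is a region open in all 3 lists, with its fold enrichment in the D7 GLI1 list (y axis, log scale) against the D7 control list (x axis, log scale), near gene ends (left, n = 9725) and away from them (right, n = 6084); dashed lines mark 2-fold. The spread about the line of equality is wider away from gene ends, where 5.21% are at least 2-fold higher and 5.56% at least 2-fold lower.

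The larger differences lay away from genes and at moderate fold. Members away from gene ends were 2-fold higher in 5.21% and 2-fold lower in 5.56%, against 1.70% and 0.627% of members near one. Of the 482 higher members 34.2% were near a gene end, and of the 399 lower ones 15.3%. Among members whose mean D7 fold (geometric) was between 5 and 10, 252 of 3320 were higher and 198 lower; among the 3065 at 40 or more, 0 were higher and 7 lower. Weaker peaks also carry more counting error, and its part in this pattern was not tested.

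The largest ratios named distal regions. The member at chr17:85912711-85913858 (mm10), 71.4 kb from Srbd1, had a fold of 34.1 with GLI1, 3.24 in the D7 control list and 6.59 at D5, a ratio of 10.5. A member 181 kb from Dph6 had folds of 37.4 with GLI1, 4.14 in the D7 control list and 4.16 at D5, and one inside Cryl1 had 33.4 with GLI1, 3.78 in the D7 control list and 4.42 at D5. The next were inside Hlf, 54.9 kb from Adamts15 and 76.0 kb from Osr1, with ratios of 6.21, 5.63 and 5.40. At the other end, ratios from 0.0995 to 0.134 were at Ythdf1, 619 kb from Cdh5, and at or near Man1a, Pebp4, Osbp and Tnip1. In 5 of those 6 the highest D7 control peak had its summit outside the member, from 510 to 2470 bp away, in a control region that ran past it, so both folds do not describe the same bases. The same was so for 90 of the 399 lower members and 10 of the 482 higher ones. Conversely, the D7 GLI1 summit lay outside the D7 control regions in 12 of the lower members and 33 of the higher ones. Where each D7 summit lay inside the region of the other list, 442 of 15257 members were higher and 305 lower. All shared regions of that kind gave 3.90% higher and 7.31% lower. The region far from Cdh5 kept its summits inside, with folds of 4.56 with GLI1, 41.4 in the D7 control list and 5.35 at D5.

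Among the gene lists, ratios of 2 or more were few. Over all 11346 genes with a member, 179 were at least 2-fold higher. The second heart field list had 3 of its 14 genes at least 2-fold higher, all forkhead genes: Foxf1 (folds of 50.4 with GLI1, 10.8 in the D7 control list and 6.76 at D5), Foxf2 (32.6, 11.3 and 4.36 in that order) and Foxc2 (27.4, 11.7 and 3.80). Foxf1 and Foxc2 are neighbouring genes on chromosome 8 and thus not independent loci. The median log2 ratio of the second heart field list was 0.49, that of the adult neuronal list 0.48 (13 genes) and that of the neural progenitor list −0.36 (15 genes), against 0.15 over all genes with a member. Gli1, Myocd, Foxa2, Erg and Tfcp2l1 were the other genes of the lists at or above 2-fold, and Gas1 the only one at least 2-fold lower. The housekeeping, splicing, replication, respiratory chain, proteasome and chromatin lists had 0 genes past 2-fold in either direction, as had 8 lists of other tissues and stages; with 179 higher and 34 lower among 11346 genes, few calls could fall in lists of this size. Of the control genes, Actb had folds of 59.5 with GLI1, 61.0 in the D7 control list and 8.19 at D5, Gapdh 59.3, 50.9 and 6.68, and Tbp 25.5, 26.3 and 8.41, in the same order of lists. No D5 region lay within 1 kb of an end of Actb.

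Short RNA genes lay in some of the members. Transfer RNA genes, read by RNA polymerase III, had their middle inside a member in 129 of 391 cases (33.0%), in 89 regions with median folds of 28.1 with GLI1, 29.0 in the D7 control list and 6.45 at D5. Of the 286 tRNA genes away from protein-coding gene ends, 67 were in a member, in 44 regions. Over all genes of a class, the middle was inside a member for 2.90% of 931 small nuclear RNA genes, 1.71% of 1286 small nucleolar RNA genes, 7.31% of 1136 miRNA hairpins and 0.113% of 8884 pseudogenes. Chromosome 11 had 30 of its 52 tRNA genes in members, chromosome 13 had 23 of 105 and chromosome 6 had 3 of 53. The region chr3:19627709-19630361 (mm10), 15445 bp from Trim55, held 4 tRNA genes and had folds of 45.6 with GLI1, 48.1 in the D7 control list and 8.49 at D5.

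Of the 83 miRNA hairpins in members, 64 were in regions near a protein-coding gene end and 19 were not. From these 19, let-7i, miR-132, miR-212 and miR-210 are printed, chosen after their values were seen because each is a well-known miRNA in a strong region; the mature sequences are RefSeq's, with the seed (bases 2 to 8) in capitals.
mmu-let-7i-5p: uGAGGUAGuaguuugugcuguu
mmu-miR-132-3p: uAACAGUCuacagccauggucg
mmu-miR-212-3p: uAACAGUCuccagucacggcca
mmu-miR-210-3p: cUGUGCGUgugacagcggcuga
The miR-132 and miR-212 strands share the seed AACAGUC, and both hairpins lie in 1 member, chr11:75172463-75173913 (mm10), with folds of 38.3 with GLI1, 32.4 in the D7 control list and 9.20 at D5. The region of let-7i, a member of the family whose maturation LIN28 blocks, had 28.4 with GLI1, 34.6 in the D7 control list and 7.59 at D5. That of miR-210, a miRNA induced by low oxygen, had 70.7 with GLI1, 43.0 in the D7 control list and 11.5 at D5. An open region over a hairpin gives no level of the miRNA.

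The members were spread over all autosomes. They numbered from 4.55 per Mb on chromosome 14 to 10.4 per Mb on chromosome 11, with a median gap of 54.4 kb. The densest windows of 100 kb held 11, 11 and 10 members. The window chr13:23500001-23600000 (mm10) lies in a histone cluster with 15 histone genes and 13 tRNA genes, where D7 GLI1 folds ran from 10.4 to 43.4. The window chr11:69000001-69100000 held 10 members, the genes Pfas, Ctc1, Aurkb, Borcs6, Tmem107, Vamp2 and Per1, and 11 tRNA genes. Of these tRNA genes, 4 had their middle in a member, at chr11:69039746-69042023. In the window chr11:87400001-87500000, at Tex14 and Rad51c, 9 of the 11 members lay at U1 and U3 RNA genes. At Rnu1a1 the folds were 40.9 with GLI1, 40.9 in the D7 control list and 4.12 at D5. Each of Rnu3b1, Rnu3b2, Rnu3b3 and Rnu3b4 had 1 member that overlapped an end of the gene and 1 from 146 to 222 bp beyond the other end, with folds from 6.32 to 23.0 with GLI1 and from 12.1 to 19.6 in the D7 control list. These U3 genes are near-identical copies, so reads could have been split among them and their values are uncertain.

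By nearest gene within 100 kb, 15339 members fell to 11719 genes, of which 9173 (78.3%) had 1 member and 75 had 5 or more. Gse1, Pknox2 and Trabd2b had 11 each, chosen here as the highest counts, and 10 of the 11 in each case lay away from a gene end. At Pknox2, a TALE homeodomain factor, 11 of 22 D7 GLI1 regions were members, with folds up to 50.6 with GLI1, 53.3 in the D7 control list and 10.5 at D5; at Gse1 11 of 63 were. Nfia, a nuclear factor I gene, had 8 members of 16 regions, none of them near its ends, with folds up to 56.3 with GLI1, 56.5 in the D7 control list and 9.77 at D5. Long genes have more room for regions, and the part of length in these counts was not tested.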

How the data were processed

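ATAC-seq libraries of 3 groups were deposited as 3 pooled peak lists. Per the submitters' processing notes, the build was mm10 and the tools were MACS2 2.1.1, Picard, SAMtools 1.5 and Bowtie2 2.3.2. In the deposited lists each peak has a fold enrichment (a ratio), a −log10 q (used here), a −log10 p (not used here), a score that follows the −log10 q, and a summit offset, all values of the authors' peak caller. No column gives read totals, so depth is known only through the number of peaks.

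Peaks on chromosomes 1 to 19 were merged within a list and compared by overlap of at least 1 base (Python 3.11.15, pandas 2.3.3, NumPy 2.4.6, SciPy 1.17.1); merging and member calls were tested on simulated peaks and against bedtools. A region's fold and summit are those of its highest peak. RefSeq gene intervals (20661 protein-coding genes, no strand), the promoter table (20084 windows of 16456 genes, GRCm38.p6) and miRNA table supplied positions and sequences; of 497 list entries 483 matched, 459 distinct genes, 24 in more than 1 list.

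The members and gene lists were chosen with earlier results of these data known. Regions named are the 8 with the highest lowest rank, the 6 with the largest and 6 with the smallest ratio, the 4 widest, the 3 shortest overlaps and 3 nearest non-members, the 3 densest windows, 16 fixed genes and up to 3 leading genes a list; of the first 10 promoters that qualified 7 are printed. Other genes were named after their values were seen. No test was made, since each group has 1 list. Alternatives changed the q limit, overlap, list length, anchor, chromosomes, window and choice of peak.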

Additional observations from a re-analysis of the deposited data

How the results depend on the processing

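No paired analysis was possible because libraries were pooled into a single list per group, which also prevents leaving out a library. Of 58 alternative values, each taken by itself, 30 stayed within the interval (or, for counts, within 1.5 times) of the reported one, 28 moved and 0 turned direction. A −log10 q of at least 5 gave 12612 members (38.1% of regions), with 69.0% near a gene end, and 50.002% of genes with a member. Of these members 262 were 2-fold higher and 165 lower, where all shared regions gave 3.26% and 8.48%. Requiring cover of at least 50% of the region left 7270 members (17.2% of regions), with 64.9% near a gene end, a median log2 ratio of 0.13, 151 members higher and 179 lower, and 27.0% of genes. With the GLI1 summit inside both other regions, the shares were 34.3% of regions, 64.2% near and 52.8% of genes. With lists of equal length (46805 peaks) they were 49.2%, 64.1% and 53.8%. Taking D7 control regions as the anchor gave 41.7% of regions. Including X and Y gave 53.5% of genes. Windows of 500 bp and 5000 bp gave 55.7% and 72.6% of members near a gene end, and 53.0% and 61.5% of genes. The mean over peaks gave a median log2 ratio of 0.15, with 896 members higher and 456 lower. All shared regions then gave 5.34% and 9.72%. Chosen after seeing the data, gene ends with table starts gave 58.4% of genes, and members with 1 region in each other list a median log2 ratio of 0.14. Those members were 2-fold higher in 383 cases and lower in 378. The cover and 1-region settings left the shares over all shared regions at 3.96% and 10.7%. Dividing the ratio by the median of shared regions, also a later choice, gave 399 higher and 447 lower. All shared regions then gave 3.42% and 11.5%. Which of the 2 counts is larger, 482 higher and 399 lower in the main setting, thus depends on the setting. Read depth was not used here, and the part of depth or of D5 peak calling in membership was not tested.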
